A study of Mus musculus with 2 samples.

Results

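The integrated stress response genes examined here for binding of NRF1 (nuclear respiratory factor 1) were Ddit3, Atf4, Atf5, Trib3, Eif2ak1, Eif2ak3, Eif2ak4, Eif2s1, Ppp1r15a and Ppp1r15b. They were taken by name, and they are 10 of the 21000 protein-coding mouse genes that have a known RefSeq coding transcript on a chromosome with peaks. A gene was given a promoter peak when the summit of an NRF1 peak, that is, its highest point, lay between 1000 bp before and 100 bp after any known transcription start of that gene. For the other genes the nearest summit on the chromosome is given. Distances are signed along the gene, so that negative values lie before the start.

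NRF1 was profiled by chromatin immunoprecipitation followed by sequencing (ChIP-seq) in skeletal muscle of wild-type mice, in a study of target genes that NRF1 shares in this tissue with the glucocorticoid receptor and the coregulator LSD1. The labels describe 2 libraries, both from wild-type muscle and both with the NRF1 antibody, and they name no treatment, age, sex or muscle group. A single list of 3226 peaks was analysed, whose peak names point to the library of replicate 1, so no value below has a replicate error and no groups were compared. The list is longer than the set of sites counted in the study's text, so it may not be the same set, and the ranks and shares below refer to the list as deposited. Whole muscle also holds nuclei of other cell types, and peaks of different cell types cannot be told apart.

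The integrated stress response slows protein synthesis when cells lack amino acids or heme, or when unfolded proteins gather in the endoplasmic reticulum. Kinases that sense these conditions phosphorylate the alpha subunit of the initiation factor eIF2, which blocks its exchange factor eIF2B, while a few messenger RNAs with upstream reading frames, Atf4 among them, are translated more. ATF4 then turns on genes for amino acid supply and for the factor CHOP, and a phosphatase with a regulatory subunit of its own removes the phosphate. In muscle the response is known from mitochondrial disease, in which it drives secretion of FGF21 and GDF15. NRF1 is known as an activator of nuclear genes for mitochondrial proteins, and it binds the palindrome GCGCATGCGC at promoters rich in CpG.

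Of the 10 genes, 4 had a promoter peak, namely Ddit3, Atf5, Eif2s1 and Ppp1r15b, and 6 had none. Over all protein-coding genes 2808 of 21000 had one, or 13.4%. The 4 genes with a peak hold different places in the pathway. Ddit3 and Atf5 encode transcription factors at its end, Eif2s1 encodes the subunit that the kinases phosphorylate, and Ppp1r15b encodes a subunit of the phosphatase that reverses it. The 3 kinase genes on the list, Eif2ak1, Eif2ak3 and Eif2ak4, had no promoter peak, and neither had Atf4, Trib3 or Ppp1r15a. These 10 genes were not drawn at random and 1 list of peaks has no replicates, so the share of 40% is a description.

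Sequence from each of the 4 promoter peaks is shown, because the peaks differ in how closely they match the palindrome and in where the matches lie. The Atf5 lines show its matches one by one, and none of them holds the summit. Each is written 5′ to 3′ on the sense strand of its gene, from the RefSeq genome sequence of GRCm38.p6, the assembly of mm10. Capitals mark 10-base stretches that match the NRF1 palindrome with at most 1 mismatch, and in Ddit3 also a C/EBP-ATF response element of 9 bases. In Ppp1r15b, which has no such match, capitals mark the stretch nearest to the summit that differs from the palindrome at 2 positions. The names of the Atf5 and Eif2s1 lines give the difference from the palindrome, with the base of the palindrome first, the position counted from 1 at the 5′ end on the sense strand, and the base of the site last. The lines come from chr10:127290443-127290562, then from chr7:44816264-44816293, chr7:44816232-44816261, chr7:44816125-44816154 and chr7:44816058-44816087 (minus strand), chr12:78862014-78862043 and chr12:78862038-78862067, and chr1:133131060-133131140.
Ddit3: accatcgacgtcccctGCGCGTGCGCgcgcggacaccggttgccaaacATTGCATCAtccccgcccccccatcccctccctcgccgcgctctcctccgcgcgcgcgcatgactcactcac
Atf5 T6G: aaccacggtcGCGCAGGCGCagaagaggga
Atf5 G7C: ctggcggccgGCGCATCCGCtgagcaagcg
Atf5 A5C: gcgcgccgttGCGCCTGCGCgctaattcac
Atf5 exact: acaacctgttGCGCATGCGCattgtcttat
Eif2s1 A5C: ttttctgtcgGCGCCTGCGCagtgagaggt
Eif2s1 G1C: agaggtggctCCGCATGCGCgctgggttgg
Ppp1r15b: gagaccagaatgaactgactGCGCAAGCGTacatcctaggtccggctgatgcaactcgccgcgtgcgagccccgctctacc

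Ddit3 encodes CHOP, a C/EBP-family transcription factor that is induced late in the response and favours cell death. The gene lies at chr10:127290793-127296291 on the plus strand and has 1 known start. Its peak at chr10:127290351-127290673 was 323 bp wide, with the summit at position 127290547, 246 bp before the start in sequence annotated as intergenic. The fold enrichment of signal at the summit over the local control background was 15.5, and the −log10 of the q-value (a p-value corrected for the number of positions tested) was 50.9. Among the 2607 promoter peaks these values ranked at percentiles 71.3 and 80.8, so the Ddit3 peak stood in the upper part of the list. No other gene had this summit in its promoter, and the whole peak lay before the start, from 442 to 120 bp upstream. Ddit3 is among the loci that the study itself displays for NRF1, so its peak is not an independent observation.

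Ddit3 was the only one of the 10 genes with a further summit within 5000 bp. The peak at chr10:127288626-127289392 had its summit 1716 bp before the Ddit3 start and 59 bp before the start of Mbd6, a neighbouring gene that encodes a methyl-CpG-binding domain protein. Its fold enrichment of 21.3 and −log10 q of 64.8 exceeded those of the Ddit3 promoter peak, and a match to the palindrome lay 5.5 bp from its summit. The stronger of the 2 peaks was therefore nearest to another gene, and the 2 summits were separate entries in the list.

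The match to the palindrome in the Ddit3 peak stood off its summit. It read GCGCGTGCGC, from 334 to 325 bp before the start, and carried the substitution A5G. Its centre was 83.5 bp upstream of the summit. Over the 1719 promoter peaks with a match within 100 bp of the summit, the median distance of the nearest match was 12.5 bp. Of those peaks, 22, or 1.28%, had their nearest match at least as far away. The search ended at 100 bp, so this count leaves out the 888 promoter peaks (34.1%) without a match in that window. A stretch with 2 mismatches was centred 2.5 bp from the Ddit3 summit.

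The Ddit3 peak also covers a C/EBP-ATF response element, the composite sequence through which ATF4 and C/EBP proteins are known to act on stress genes. Written TGATGNAAT, or ATTNCATCA on the other strand, it was found as ATTGCATCA from 302 to 294 bp before the start, which is chr10:127290491-127290499. The centres of this element and of the NRF1 match lay 31.5 bp apart, both on the upstream side of the summit. Searched in this form with no mismatch allowed, the element was in a promoter of Ddit3 alone among the 10 genes, against 862 of all protein-coding genes (4.1%). Other forms of the element were not searched. A match to letters is a description of the sequence and says nothing about what bound there.

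Atf5 encodes a transcription factor related to ATF4, which is translated under stress in the same way and is known for the response to faulty mitochondrial proteins. The gene lies at chr7:44812256-44816658 on the minus strand and has 2 known starts 1000 bp apart. The coding transcript NM_030693.2 starts at position 44815658 and the noncoding transcript NR_033136.1 at 44816658. The peak at chr7:44815810-44816603 had its summit at position 44816221, between these starts, 563 bp before the coding one and 437 bp after the noncoding one. The fold enrichment was 16.8 and the −log10 q was 62.2, at percentiles 76.6 and 87.4 of promoter peaks, the highest values among the 4 genes.

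The Atf5 peak cannot be assigned to Atf5 alone. Its summit lay in an intron of the noncoding Atf5 transcript and in an untranslated exon of Nup62, a nuclear pore gene read from the other strand, 133 bp after the Nup62 start and so 33 bp past the end of that promoter window. It also lay in the promoter of Il4i1b, 149 bp before the start of that gene. The peak was 794 bp wide, against a median of 296 bp, and ranked at percentile 99.3 of promoter peaks by width. It covered the starts of Nup62 and Il4i1b, and the start nearest to its summit was that of Nup62.

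Atf5 had the richest set of NRF1 matches among the 10 genes. The matches GCGCAGGCGC (T6G), GCGCATCCGC (G7C) and GCGCCTGCGC (A5C) were centred 57.5, 25.5 and 81.5 bp from the summit, and only 39 promoter peaks (1.5%) had 3 or more matches within 100 bp. The exact palindrome followed 410 to 419 bp before the coding Atf5 start, inside the peak but 148.5 bp from the summit. It lies at positions 44816068 to 44816077, just before the Nup62 start at position 44816088, and so in the promoter of that gene as well. Of the 10 genes, only Atf5 had an exact palindrome in a promoter. Over all genes 368 (1.75%) had one, and 329 of those (89.4%) had a promoter peak.

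**Figure D1:**
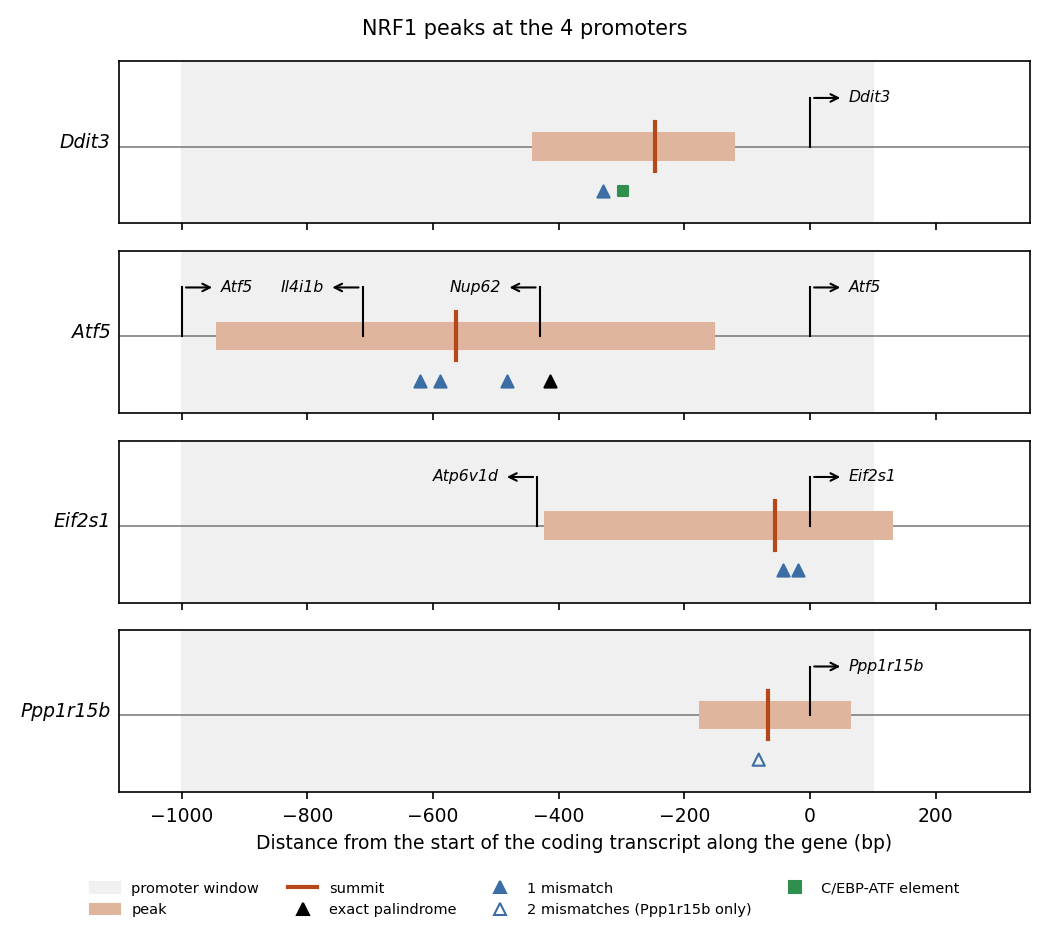
Maps of the 4 promoters with an NRF1 peak, drawn to scale as distance in bp from the start of the coding transcript along the gene. The bars are peaks, the vertical lines through them are summits, bent arrows are known starts, triangles are palindrome matches and the square is the C/EBP-ATF element. The Ddit3 match stands off its summit, the Atf5 peak spans the starts of Nup62 and Il4i1b, and the Eif2s1 and Ppp1r15b peaks reach over their starts.

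Eif2s1 encodes eIF2 alpha, the subunit that stress kinases phosphorylate. The gene lies at chr12:78862072-78887010 on the plus strand and has 1 known start. Its peak at chr12:78861649-78862203 was 555 bp wide, with the summit at position 78862016, 56 bp before the start, the closest summit among the 10 genes. The fold enrichment was 8.25 and the −log10 q was 16.5, at percentiles 27.9 and 32.3 of promoter peaks. The peak was thus wider than most, at percentile 94.2 by width, but below the median by both measures of strength.

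The matches GCGCCTGCGC (A5C) and CCGCATGCGC (G1C) of Eif2s1 lay from 48 to 39 bp and from 24 to 15 bp before the start, centred 12.5 and 36.5 bp downstream of the summit. Of all promoter peaks, 311 (11.9%) had 2 or more matches within 100 bp. The Eif2s1 promoter faces that of Atp6v1d, which encodes a subunit of the vacuolar proton pump and starts 434 bp away on the other strand. The same summit lay 378 bp before the Atp6v1d start and in its promoter as well. With the start that GENCODE M21 gives for Eif2s1 at position 78861819, the summit lay 197 bp after the start and outside the promoter, so this call depends on the annotation, which was tried after the data were seen.

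Ppp1r15b encodes CReP, the regulatory subunit that keeps the phosphatase on eIF2 alpha in unstressed cells. The gene lies at chr1:133131166-133139800 on the plus strand. Its peak at chr1:133130989-133131231 was 243 bp wide, with the summit at position 133131100, 66 bp before the start. The fold enrichment of 6.97 and the −log10 q of 10.8, at percentiles 17.5 and 19.3, were the lowest of the 4 genes. No other gene had this summit in its promoter.

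Ppp1r15b was also the only one of the 4 genes without a match of at most 1 mismatch in its promoter. The nearest stretch read GCGCAAGCGT, with the substitutions T6A and C10T, and was centred 15.5 bp upstream of the summit. Promoter peaks without a match within 100 bp numbered 888 (34.1%), and 653 of them (73.5%) had a stretch with 2 mismatches. Their median fold enrichment was 8.58, against 12.9 for promoter peaks with a match. The value of Ppp1r15b lies below both medians.

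**Figure D2:**
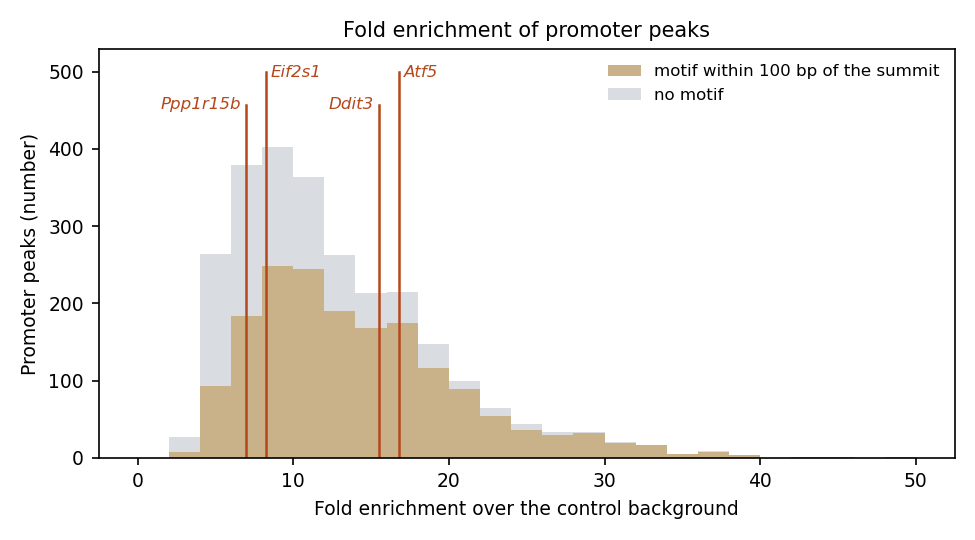
Number of promoter peaks by fold enrichment over the control background, stacked by whether a palindrome match with at most 1 mismatch lies within 100 bp of the summit. Vertical lines mark Ppp1r15b at 6.97, Eif2s1 at 8.25, Ddit3 at 15.5 and Atf5 at 16.8, so that 2 genes lie below and 2 above the median of 11.1.

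The 4 peaks thus fell into an upper and a lower pair by fold enrichment. The quartiles over all promoter peaks were 7.9 and 16.4 around the median of 11.1. Atf5 was above the upper quartile, Ddit3 between the median and that quartile, Eif2s1 between the lower quartile and the median, and Ppp1r15b below the lower quartile. The order by −log10 q, whose median was 25.3, was the same, with Atf5 and Ddit3 above it and Eif2s1 and Ppp1r15b below. There is no replicate from which an error of these values could be had, and read depth is unknown. A match within 100 bp of the summit was present in 3 of the 4 peaks, beside 1719 of all promoter peaks (65.9%).

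The kinases that start the response had no promoter peak. Eif2ak1 encodes HRI, which senses heme shortage and mitochondrial stress. The gene lies at chr5:143817792-143902717, and its nearest summit was 85325 bp before the start, 187 bp before the start of Usp42. That peak was weak, with a fold enrichment of 5.01 and a −log10 q of 4.53.

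Eif2ak3 encodes PERK, the kinase of the endoplasmic reticulum, and lies at chr6:70844484-70905241. Its nearest summit was 427065 bp after the start, the farthest among the 10 genes, in the promoter of Krcc1. Eif2ak4 encodes GCN2, which senses uncharged transfer RNA, and lies at chr2:118388583-118475234. Its nearest summit was 90654 bp after the start and past the end of the gene, in the promoter of Srp14, which encodes a protein of the signal recognition particle. The fold enrichments of these 2 peaks, 19.7 and 17.9, were above that of any of the 4 promoter peaks, but the peaks sit at the starts of other genes. Eif2ak2, the gene of the kinase PKR that senses double-stranded RNA, was not on the list of 10. It has no CpG-rich start, and its nearest summit was 33943 bp before its start. With it, 0 of 4 eIF2 alpha kinase genes had a promoter peak, a count too small to be read against the 13.4% of all genes.

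Atf4 encodes the main transcription factor of the response and lies at chr15:80255184-80257545 on the plus strand. Its nearest summit was 121888 bp before the start, in an intron of Tab1 and 150 bp after the Tab1 start, with a fold enrichment of 10.1. Trib3 encodes a pseudokinase that ATF4 and CHOP induce and that dampens their activity. It lies at chr2:152337425-152344060 on the minus strand, and its nearest summit was 50303 bp after the start, in the promoter of Tbc1d20, with a fold enrichment of 19.5. No peak therefore lay near either gene.

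Ppp1r15a encodes GADD34, the inducible counterpart of CReP, and lies at chr7:45522917-45526268 on the minus strand. Its nearest summit was 59325 bp after the start, in the promoter of Bax, with a fold enrichment of 7.68 and a −log10 q of 14.4. The phosphatase subunits therefore differed, with a promoter peak called at Ppp1r15b, which acts without stress, and none at Ppp1r15a. A gene outside the list of peaks may still be bound below the threshold of the peak caller, because a list without signal values does not give the level there.

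For 5 of the 6 genes without a promoter peak, then, the nearest summit was in the promoter of another gene, and for Atf4 it was just inside Tab1. Of all 3226 peaks, 2607 (80.8%) were promoter peaks, so the count is no trait of these genes. Over the 18192 protein-coding genes without a promoter peak, the median distance to the nearest summit was 186975 bp, with quartiles of 58885 and 585252 bp. Trib3 lay at percentile 22.2 of these distances, Ppp1r15a at 25.1, Eif2ak1 at 32.2, Eif2ak4 at 33.6, Atf4 at 40.3 and Eif2ak3 at 68.6. The 6 genes thus lay within the middle range of these distances or nearer to a peak.

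**Figure D3:**
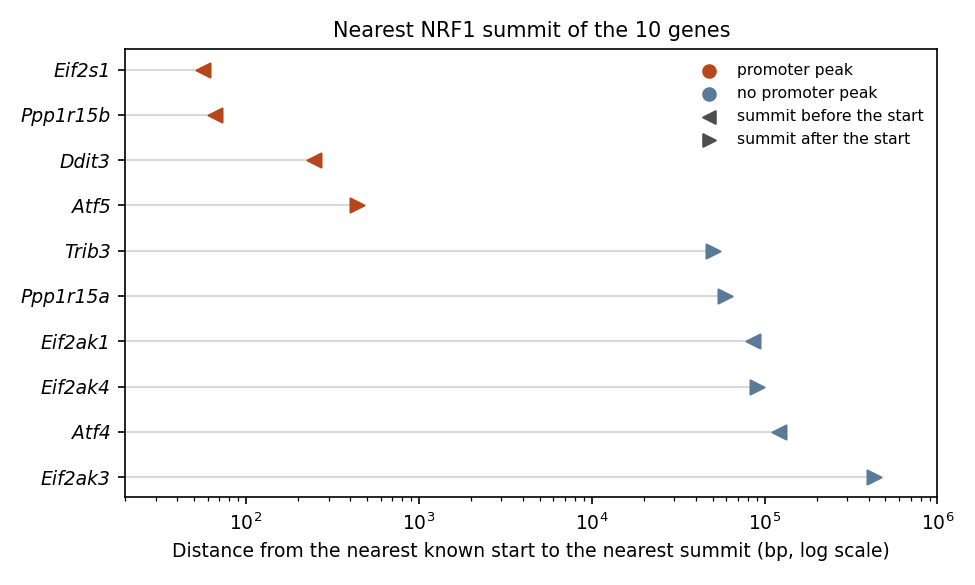
Distance in bp, on a log scale, from the nearest known start of each of the 10 genes to the nearest NRF1 summit, with triangles that point left for summits before the start and right for summits after it. The 4 genes with a promoter peak have summits 56 to 437 bp away and the 6 others 50303 to 427065 bp away. The Atf5 value is from the noncoding start, and its summit lies in the promoter of the coding one.

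All 10 genes had a CpG-rich start, defined as GC content of at least 55% and a ratio of observed to expected CpG of at least 0.65 within 250 bp. Over all protein-coding genes 10251 (48.8%) had such a start, and 2507 of these, or 24.5%, had a promoter peak. That share is the closer background for the 10 genes. GC content at Ddit3 was 58.1% with a ratio of 0.66, the lowest ratio among the CpG-rich starts. At Eif2s1 the values were 57.7% and 0.84, and at Ppp1r15b 62.7% and 0.92. Atf5 differed between its starts, with 69.1% and 1.02 at the noncoding start but 51.9% and 0.33 at the coding start, so the start whose promoter holds the summit is not CpG-rich.

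The base composition of the genes without a promoter peak overlapped that of the genes with one. GC content was 60.1% at Atf4, 61.5% at Trib3, 63.3% at Eif2ak1, 64.7% at Eif2ak3, 69.1% at the CpG-rich start of Eif2ak4 and 58.1% at Ppp1r15a. Their ratios of observed to expected CpG lay between 0.77 at Eif2ak4 and 1.07 at Ppp1r15a. The highest ratio of all 10 genes was thus at a promoter without a peak.

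**Figure D4:**
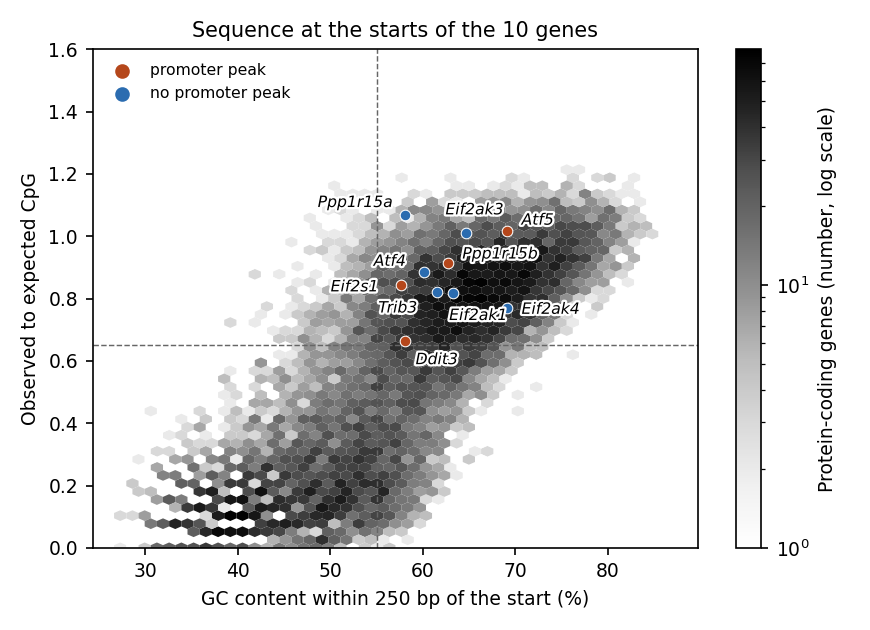
GC content (%) and ratio of observed to expected CpG within 250 bp of the start, for the 10 genes (points) over all protein-coding genes (shaded by number on a log scale), at the start with the highest values for genes with several. Dashed lines are the limits of a CpG-rich start, and all 10 genes lie beyond both, with and without a promoter peak mixed.

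The CpG-rich class cannot separate the 10 genes, since all belong to it. A match with at most 1 mismatch was found in a promoter of Ddit3, Atf5 and Eif2s1, 3 of the 10, and in promoters of 2548 of all genes (12.1%). Of those 2548 genes 75.4% had a promoter peak, as had these 3. Without a match, 4.81% of 18452 genes had a promoter peak, and 9.6% of the 8128 genes with a CpG-rich start and no match. Ppp1r15b was the only one of the genes without a match that had a peak. The best stretch in the promoters of Atf4, Trib3, Eif2ak1, Eif2ak3 and Ppp1r15a had 3 mismatches, and that of Eif2ak4 had 2, as in Ppp1r15b.

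The other genes of the pathway were described by 3 lists with 78 genes in all, of which 17 (21.8%) had a promoter peak, against 13.4% of all protein-coding genes. Of the 62 with a CpG-rich start, 15 (24.2%) had one, near the 24.5% of all genes with such a start. Around the target of the kinases, 8 of 20 genes of the eIF2 machinery and its regulators had one (40%), and 6 of the 8 peaks had a match within 100 bp of the summit, as had 9 of the 17 over the 3 lists and 65.9% of all promoter peaks. The strongest was at Oma1, which encodes the mitochondrial protease that starts the relay of mitochondrial stress to HRI, with a summit 14 bp before the start and a fold enrichment of 17.6. Eif2a, an initiation factor that is not part of eIF2, had its summit 79 bp after the start and a fold enrichment of 17.4. Eif2b3, a subunit of the exchange factor eIF2B, and Eif2s2, the beta subunit of eIF2, followed with 13.1 and 12.8. The other 4 genes were Dnajc3, Nck1, Eif2b5 and Denr.

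Counted with Eif2s1, 2 of the 4 eIF2 subunit genes had a promoter peak, Eif2s1 and Eif2s2, and 2 of the 5 eIF2B subunit genes, Eif2b3 and Eif2b5. The fold enrichment was 8.25 at Eif2s1 and 6.56 at Eif2b5, below those at Eif2s2 and Eif2b3. The peaks at Eif2b5 and Nck1, like that at Ppp1r15b, had no match with at most 1 mismatch. Of the 20 genes, 16 had a CpG-rich start, and these included all 8 with a peak, a share of 50% beside the 24.5% of all CpG-rich genes. The list was chosen with earlier results of these data known, so this share is a description.

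Genes that ATF4 or CHOP induce had promoter peaks at 4 of 36 (11.1%), against 13.4% of all genes. Of the 25 with a CpG-rich start, 2 (8%) had one, Slc3a2 and Gars1, against 24.5% of all such genes. The 4 genes of the 36 were Shmt2, a mitochondrial one-carbon enzyme, with a summit at the start itself and a fold enrichment of 21.8, Slc3a2, the heavy chain of amino acid exchangers, with 19.9, Gars1, glycyl-tRNA synthetase, with 13.8, and Tnfrsf10b, a death receptor that CHOP induces, with 8.56. Only the Shmt2 peak of these 4 had a match within 100 bp of the summit. Gdf15 and Fgf21, the genes of the secreted stress signals named above, had no promoter peak. The nearest summit of Gdf15 was 2209 bp after the start with a fold enrichment of 27.9. That of Fgf21 was 23288 bp before the start, with a fold enrichment of 10.1. Ddit4 had no promoter peak either, and its nearest summit was 51083 bp before the start. The study nevertheless reports NRF1 at a Ddit4 promoter site in control muscle, measured by ChIP with quantitative PCR. A gene without a promoter peak in this list may therefore still be bound. Of the transcription factors and their pseudokinase partner among the 10 genes, Ddit3 and Atf5 had a promoter peak while Atf4 and Trib3 had none. The transcription regulators among the 36, Atf3, Cebpb, Cebpg and Nupr1, had none either.

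The other arms of the unfolded protein response had promoter peaks at 5 of 22 genes (22.7%), against 13.4% of all genes, with a median fold enrichment of 7.62. They were Pdia6, Dnajb9, Hsp90b1 and Hyou1, which encode chaperones or folding enzymes of the endoplasmic reticulum, and Atf6b, which encodes a stress sensor. Fold enrichments were 10 at Pdia6, 9.21 at Dnajb9, 7.62 at Hsp90b1 and 6.08 at Atf6b. A match within 100 bp of the summit was present at 2 of the 5 peaks. All 5 fold enrichments were below the median of promoter peaks, 11.1, as were Eif2s1 and Ppp1r15b. Mbtps1, the protease that cleaves ATF6, had a summit 275 bp after its start and outside the promoter window, with a fold enrichment of 9.22. Of the 22 genes, 21 had a CpG-rich start, and the 5 with a peak were all among these, so that the share there, 23.8%, was near the 24.5% of all CpG-rich genes.

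**Figure D5:**
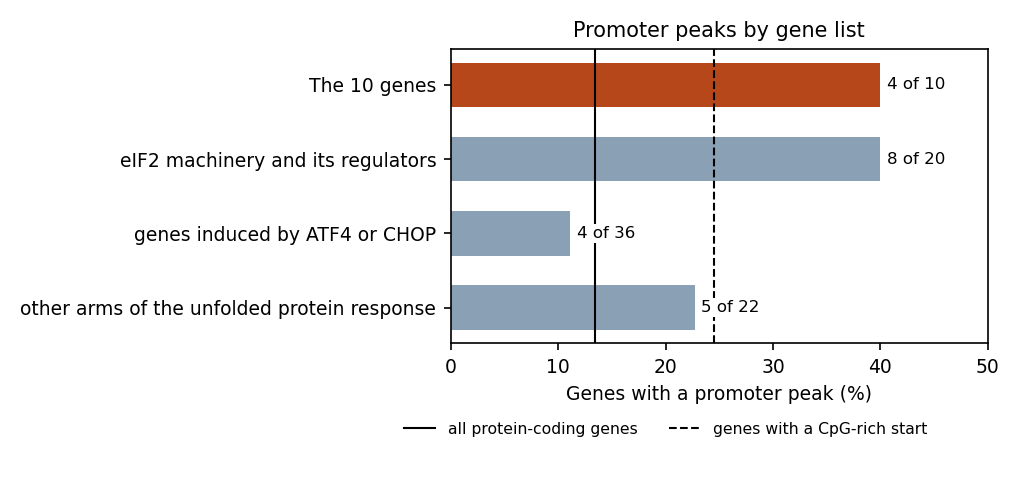
Percent of genes with an NRF1 promoter peak among the 10 genes and in the 3 lists around them, with the number of genes beside each bar. The solid line is the share over all protein-coding genes (13.4%) and the dashed line that over genes with a CpG-rich start (24.5%), and the bars for the 10 genes and the eIF2 machinery, both at 40%, reach past both. The genes and lists were chosen with earlier results of these data known, so the bars are a description. With GENCODE M21 basic starts, 3 of the 10 genes had a promoter peak.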

How the data were processed

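According to the methods, reads of single ends were placed on mm10 by the authors with Bowtie, those that mapped uniquely and outside blacklisted regions were kept, and peaks were called with MACS2 against input DNA. The methods name a broad option, whereas the deposited list has narrow peaks with summits. Fold enrichment is a ratio the authors gave per peak, and the deposited q-values are on the −log10 scale, with 3219 peaks at a q of at most 0.01 and 7 above it. The labels give both libraries the NRF1 antibody, whereas the study's reporting summary names the library of replicate 2 as input, and pooling is not given in the sources used here. The list gives no read depth, although depth sets how weak a site can be called.

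Starts came from 45756 known RefSeq transcripts of GRCm38.p6, noncoding ones of coding genes included. The palindrome was searched on both strands with at most 1 mismatch, within 100 bp of a summit or in a promoter. For each gene list, genes with a promoter peak were named, with values for the 4 highest fold enrichments, as were others with a summit within 5000 bp of a start. A few further genes without a promoter peak were named for comparison. All 78 genes matched by symbol or synonym (Gars1 as Gars), and 1 gene, Hyou1, with several promoter peaks was given by its strongest. The 10 genes and the lists were chosen with earlier results of these data known. No test was run, because there is 1 list. Python 3.11.15 and numpy 2.4.6 were used. The searches for the palindrome and the C/EBP-ATF element, and the CpG ratio, were tested on made-up sequences.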

Additional observations from a re-analysis of the deposited data

How the results depend on the processing

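The count of 4 genes with a promoter peak, and the genes themselves, stayed the same with promoters of 500 bp before to 500 bp after or 2000 bp before to 500 bp after a start, with any overlap in place of the summit, with peaks at a q-value of at most 1e-05 or a fold enrichment of at least 5, and with predicted starts. With GENCODE M21 basic starts, which were tried after seeing the data, the count was 3, without Eif2s1. Over all genes the share with a promoter peak ran from 12.8% to 14.7% under these settings. The number of the 4 peaks with a palindrome match was 3 as reported, 0 with no mismatch allowed, 4 with at most 2 mismatches, 3 within 200 bp of the summit and 2 within 50 bp, the latter without Ddit3. The nearest summit of Eif2ak1 moved to 269129 bp before the start at a q-value of at most 1e-05, and 19 of 20 alternative distances were unchanged. Ranks among all peaks were 74.1 for Ddit3, 79.1 for Atf5, 31.3 for Eif2s1 and 20.6 for Ppp1r15b, in the same order. No paired analysis was possible because only 1 list of peaks was analysed, and for the same reason no replicate could be left out. Unknown depth limits any reading of the 6 genes without a promoter peak, since a weak site may fall below the threshold.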

Other observations

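The C/EBP-ATF element TGATGNAAT, on either strand, was found inside 8 of the 2607 promoter peaks (0.307%), those of Tmem19, Ddit3, Mlh3, Cox17, Clp1, Gars1, Fundc1 and the shared promoter of Vrk3 and Zfp473. Of the 8 peaks, 5 also held a palindrome match with at most 1 mismatch. The centres lay 31.5 bp apart at Ddit3, and 88.5 bp at Mlh3, 108.5 bp at Clp1, 123.5 bp at Cox17 and 215.5 bp at Tmem19. A spacing of at most 50 bp, a limit chosen after these values were seen, was found at Ddit3 alone.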
